A study of Mus musculus with 31 samples.

Results

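Mouse embryonic fibroblasts that were infected on day 0 with viruses carrying the 4 reprogramming factors, namely c-Myc, Oct4, Sox2 and Klf4 (the 4F arm, by retroviral delivery), were compared between days 5 and 6 and days 3 and 4. The later window held 4 arrays and the earlier window 4, with replicates 1 and 2 of each day, so that 8 of the 31 arrays of the series entered the comparison. Every array read total RNA of a bulk culture grown in DMEM with 10% foetal bovine serum, and replicate 1 was labelled from 120 ng of RNA where replicate 2 was labelled from 300 ng. The remaining arrays held uninfected fibroblasts (day 0), 4F cells of other days, cells given a GFP virus (the control arm, with 2 arrays each on days 3 and 5 and none on day 4 or 6) and cells given Oct4, Sox2 and Klf4 without c-Myc (3F, 1 array a day). The labels call the replicates biological without saying whether they came from separate cultures or embryos, so the p-values measure the spread between arrays. That spread was pooled over the 24 numbered arrays fitted together, of which the 8 are a part. The labels give no mouse strain, passage or share of infected cells. Values are log2 signals, in which a difference of 1 is a doubling.

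Reprogramming by these factors is usually described as a loss of the fibroblast programme and of its actin stress fibres, a gain of epithelial junctions, and a late, slow opening of the endogenous pluripotency network around Oct4, Sox2 and Nanog. Fibroblasts in serum keep their contractile genes on through serum response factor (SRF), which binds the CArG box, and through the YAP and TEAD proteins, both of which respond to actin tension. In a bulk culture, fewer cells of a type and less RNA per cell cannot be told apart, and this holds for every value below.

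The 8 arrays matched their label as fibroblast cultures: of 17 fibroblast markers measured, 16 stood above the array median on all 8. Replicates of a day correlated at r = 0.985 to 0.99 across genes. In a principal component analysis of the 8 arrays, the first component (39.5% of the variance) separated replicate 1 from replicate 2. It also rose from day 3 to day 6, from 4.14 to 20.9 in replicate 1 and from -25.7 to -3.47 in replicate 2. The second (32.4%) fell over those days, from 13.8 to -0.7 in replicate 1 and from 15.4 to -26.7 in replicate 2. Both components thus moved with the day. The delivered genes were read first. Pou5f1, which encodes Oct4, stood at 6.05 to 6.75 on the 4F arrays of days 3 and 4 against 5.22 and 5.41 on the GFP arrays of day 3. Sox2 stood at 5.9 to 6.24 on those 4F arrays and at 5.57 and 5.56 on the GFP arrays, so it too was above the GFP control. In uninfected fibroblasts Sox2 stood at 5.66 and 5.98 (replicates 1 and 2). The 4F values of replicate 1, 5.95 and 5.9, were within that range, though each 4F array was above the uninfected array of its replicate. Klf4 stood at 7.15 to 7.52 on the 4F arrays and at 7.67 and 7.98 on the GFP arrays, and Myc at 6.61 to 8.12 against 7.75 and 9.58. The signal of the Klf4 and Myc genes was therefore not above the control, and the sources used here do not say whether the array reads the viral transcripts.

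Between the windows more genes fell than rose, among them 15 of 30 contractile and serum response genes and 6 of 41 fibroblast matrix genes, while 5 of 45 pluripotency genes were among those that rose. Of 19938 genes, 302 (1.51%) passed limma at an adjusted p under 0.05: 107 (0.537%) were higher and 195 (0.978%) lower on days 5 and 6. Falls reached -1.98 (Tagln) with a median of -0.59, and rises reached 1.48 (Slc38a5 and Pou5f1) with a median of 0.50. A change of at least 1 on the log2 scale was called in 24 genes that fell and 9 that rose. The genes that fell were well expressed at the start, with a median signal of 8.74 on days 3 and 4, while the genes that rose had a median of 6.56, close to the 6.31 of all genes. Each of the 302 moved the same way in both replicate numbers. The 4 later arrays lay wholly below the 4 earlier ones for 121 of the 195 and wholly above for 71 of the 107, against 5.26% of all genes with no overlap in either direction. Both counts follow in part from the selection, because the genes were called on these same arrays, and they are not separate evidence.

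The change was larger in replicate 2. Of the 195 genes that fell, 160 fell further there (median -0.66, against -0.48 in replicate 1), and of the 107 that rose, 75 rose further (0.54 against 0.43). Over all genes the median absolute difference was the same in both, at 0.079. The part of the RNA amount, which goes with the replicate number, was not tested. The count of calls rests on the replicate block: without it 52 genes were called, 22 higher and 30 lower, all of them among the 302. It also rests on single arrays. Leaving out 4F day 3 replicate 2 left 56 calls, 4F day 6 replicate 2 left 60, 4F day 5 replicate 2 left 75, 4F day 4 replicate 2 left 97, 4F day 4 replicate 1 left 98 and 4F day 5 replicate 1 left 147. In all, 12 risers and 31 fallers were called whichever of the 8 arrays was left out, among them Slc38a5, Trh, Il7r, Mctp2, Atp9a and Atp2a3 upward and Cnn2, Cald1, Thbs1, Lpp, Actn1, Axl, Myof and Vim downward.

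**Figure D1:**
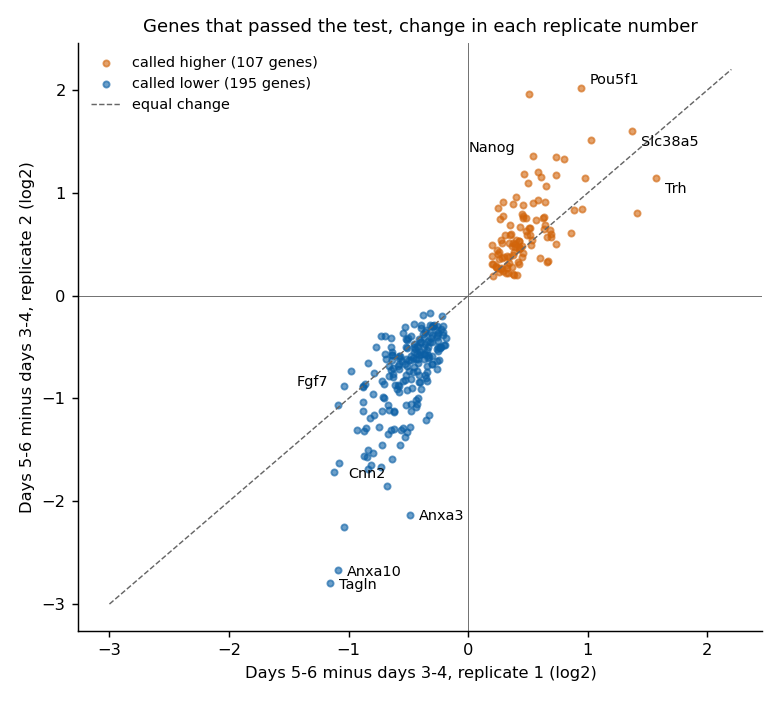
Log2 difference between days 5-6 and days 3-4 within replicate 1 (x axis) and within replicate 2 (y axis), 1 point for each of the 302 genes called by limma; the dashed line marks equal change. All points lie where both replicates moved the same way, which follows in part from calling the genes on these same arrays. Of the 195 genes that fell, 160 lie below the dashed line.

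Contractile and serum response genes made up the clearest group. All 30 measured members had a value below 0, with a median of -0.90 (-0.67 in replicate 1 and -1.1 in replicate 2), and 15 of the 30 passed the test as lower, against the background of 0.978% of all genes called lower; none passed as higher by limma, and none had an unadjusted p under 0.05 in that direction. For 22 of the 30 the later arrays lay wholly below the earlier ones, against 612 of all 19938 genes. The group was chosen with earlier results of these data known, so the counts describe it and are not independent evidence.

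Among actin-binding proteins, Tagln, which encodes transgelin, a calponin-family protein of contractile cells, stood at 9.66 and 10.9 on day 3 (replicates 1 and 2), 9.7 and 9.75 on day 4, 8.59 and 8.12 on day 5, and 8.45 and 6.9 on day 6. All 4 later values were below all 4 earlier ones, and the lowest was replicate 2 of day 6. The difference was -1.98 ± 0.45 (SE; adjusted p = 0.043), so the earlier signal was 3.95-fold the later one. Cnn2, which encodes calponin 2, stood at 10.2 and 10.9 on day 3, 9.73 and 10.1 on day 4, 9.07 and 9.25 on day 5, and 8.72 and 8.55 on day 6. It fell on every step in both replicates, by -1.35 ± 0.16 in all (adjusted p = 0.0022), and was called whichever array was left out. Csrp1, an actin-crosslinking LIM protein, fell by 1.22 ± 0.24 on the log2 scale (adjusted p = 0.021), from 10.0, 11, 9.63 and 10.1 on the earlier arrays to 8.97, 9.25, 8.94 and 8.74 on the later ones. Cald1, which encodes caldesmon, a brake on myosin, differed by -1.09 ± 0.13 (adjusted p = 0.0022).

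Of the motor and filament genes, Myl9, the regulatory light chain of non-muscle and smooth muscle myosin, stood at 9.2 and 10.2 on day 3, 8.76 and 9.21 on day 4, 7.97 and 7.72 on day 5, and 7.91 and 7.14 on day 6. The later arrays again lay below the earlier ones, with a difference of -1.65 ± 0.36 (adjusted p = 0.036). Acta2, smooth muscle alpha-actin, went from 11.7, 12.6, 11.6 and 12.3 to 10.9, 11.5, 10.8 and 11.2, a difference of -0.98 ± 0.22 (adjusted p = 0.043). Its later arrays were all below its earlier ones, by a narrow gap between replicate 1 of day 4 and replicate 2 of day 5. The tropomyosins, which run along the actin filament and set which myosins bind it, fell as well: Tpm2 by -1.17 ± 0.19 (adjusted p = 0.0094) and Tpm1 by -0.98 ± 0.15 (adjusted p = 0.007), with Tpm4 at -0.51.

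The focal adhesion members that passed were Lpp (-0.88), Actn1 (-0.87), the SRF and TGF-beta co-regulator Tgfb1i1 (-0.75), Zyx (-0.73) and Pdlim7 (-0.67). Amotl2, an angiomotin that holds YAP at junctions and is itself a YAP target, fell by 1.01. The best known YAP targets had larger but more scattered differences: Ccn2 differed by -1.93 ± 0.68 (adjusted p = 0.24) and Ccn1 by -1.53 ± 0.40 (adjusted p = 0.077), and neither passed. For Ccn2 the values ran 10.2, 11.1, 9.65 and 9.3 on the earlier arrays and 8.76, 7.67, 8.39 and 7.67 on the later ones. Those of Ccn1 ran 10.4, 11.2, 9.89 and 10.4, then 9.29, 8.6, 9.03 and 8.83. Neither gene's windows overlapped, although the spread within a window was wide.

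**Figure D2:**
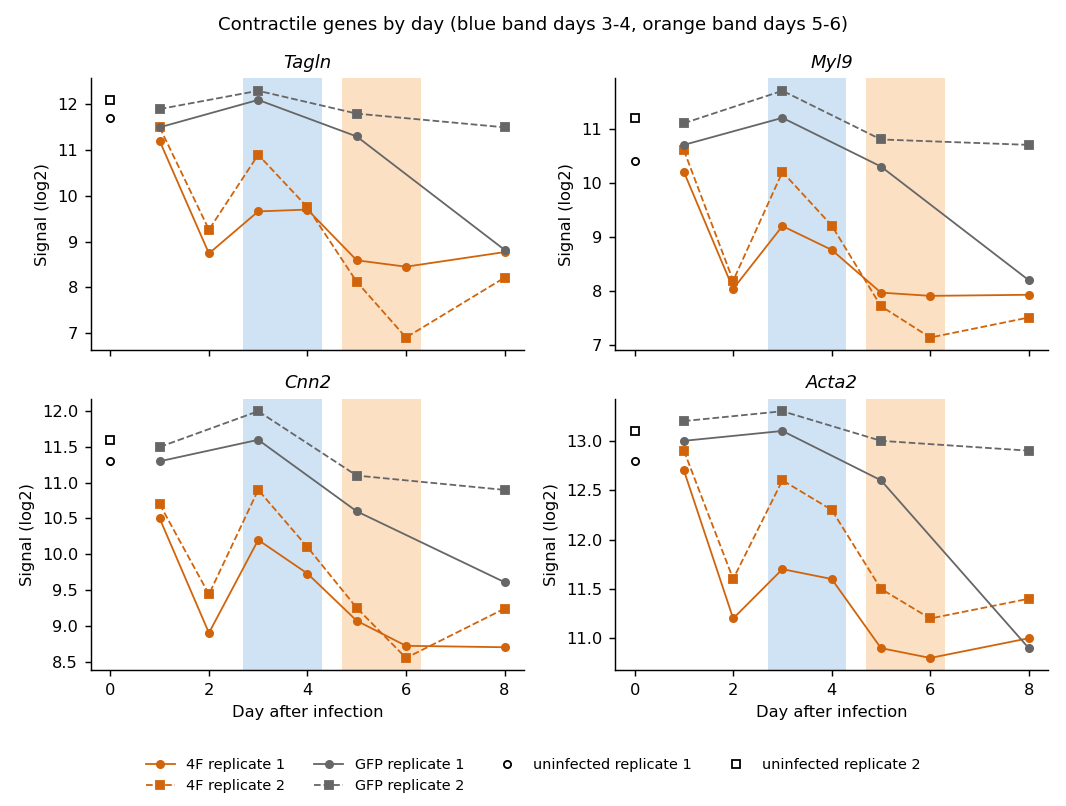
Log2 signal of Tagln, Myl9, Cnn2 and Acta2 by day after infection: 4F cells in orange, GFP cells in grey, uninfected cells as open black symbols, with circles for replicate 1 and squares for replicate 2; the blue band marks days 3-4 and the orange band days 5-6. In 4F cells all 4 genes were lower on day 2 than on day 3 in both replicates, so the fall from days 3-4 to days 5-6 starts from a higher level than that of day 2.

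The fall did not run in 1 line from day 1. On day 2 Tagln had stood at 8.74 and 9.26, below its 9.66 and 10.9 of day 3, and Cnn2 at 8.9 and 9.44, below its 10.2 and 10.9. Tpm1 had stood at 10.2 and 10.3 on day 2, against 10.9 and 11.6 on day 3. The list median over single days was -0.53 from day 3 to day 4, -0.58 from day 4 to day 5 and -0.18 from day 5 to day 6. The GFP arm fell over the same days too: between day 3 and day 5 its list median was -0.62, with 2 of 30 called lower, against -1.1 for the same days of the 4F arm. The difference of the 2 arms had a median of -0.35 and passed for 1 member, Lpp (-1.17, adjusted p = 0.049). For Tagln it was -1.30 (adjusted p = 0.57) and for Cnn2 -0.51 (adjusted p = 0.53), so for these genes no difference from the control arm was shown. The count of 15 fell to 4 without the replicate block, to 4 when 4F day 3 replicate 2 was left out, and to 5, 6 and 6 when replicate 2 of day 6, day 5 or day 4 was. Without replicate 1 of day 4 it was 7.

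The promoters of these genes were read from RefSeq, as the 250 bases before and 50 after the start (build GRCm38.p6). The CArG box, searched on both strands, was present in 254 of 15614 promoters of measured genes (1.63%), in 8 of 164 of the genes called lower (4.88%), in 1 of 84 called higher (1.19%), and in 7 of the 26 contractile list members with an entry (26.9%). The list was written to hold serum response genes, so a high share of the SRF box in it is partly built in. Within the list the box was held by 2 of the 13 called members with an entry, Myl9 and Cnn2. Tagln and Tgfb1i1, also called lower, had no usable entry. Their windows are shown because both genes fell and both carry the element for which the list is known, with the CArG box in capitals.

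Myl9, chr2:156775273-156775342, plus strand: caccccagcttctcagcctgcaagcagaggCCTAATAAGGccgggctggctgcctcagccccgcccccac

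Cnn2, chr10:79988514-79988583, plus strand: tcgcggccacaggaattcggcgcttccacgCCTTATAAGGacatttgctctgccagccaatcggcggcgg

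The box began 161 bases before the start of Myl9 and 56 bases before that of Cnn2. The TEAD letters CATTCC, on either strand, were in 15.1% of all promoters, 21.3% of those called lower and 22.6% of those called higher. In the contractile list they were in 12 of 26 promoters (46.2%), and in 5 of the 13 called members with an entry (38.5%). The AP-1 letters TGANTCA were in 8.08% of all, 13.4% of the lower and 5.95% of the higher genes, and in 3 of the 26 contractile promoters (11.5%). A match is a description of letters and not of binding.

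Matrix and mesenchymal genes fell in part. Of 41 fibroblast matrix genes 6 passed as lower, against 0.978% of all genes, and none as higher (1 had an unadjusted p under 0.05 upward), with a list median of -0.23, which was -0.46 in replicate 1 and -0.072 in replicate 2. Tnc, which encodes tenascin-C, an adhesion-modulating glycoprotein, stood at 8.98 and 9.99 on day 3, 9.13 and 8.72 on day 4, 8.14 and 7.97 on day 5 and 7.73 and 7.3 on day 6. Its later arrays were all below its earlier ones, with a difference of -1.42 ± 0.25 (adjusted p = 0.013). Thbs1 (thrombospondin 1) went from 12.2, 12.9, 12.1 and 12.2 to 11.3, 11.5, 11.2 and 11, a difference of -1.12 ± 0.17 (adjusted p = 0.0066) that was called without each of the 8 arrays. Fbln5, an organiser of elastic fibres, fell by 0.92 ± 0.16 on the log2 scale, and Ecm1 (-0.85), Bgn (-0.88) and Sparc (-0.46) passed too. In the GFP arm the matrix list had a median of 0.12 between days 3 and 5, with no gene called by limma and 3 with an unadjusted p under 0.05. Among the 6 called members, Tnc (-0.31), Thbs1 (-0.39) and Ecm1 (-0.11) were below 0 there too, while Fbln5 (0.20), Bgn (0.15) and Sparc (0.17) were above. Limma's test of the difference between the arms passed for none of the 6 (adjusted p = 0.16 to 0.34).

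Of 34 mesenchymal regulators and markers 6 passed as lower, against 0.978% of all genes, and none as higher, with no gene at an unadjusted p under 0.05 upward. The mesenchymal cadherin Cdh11 stood at 10.0 and 10.4 on day 3, 9.74 and 9.9 on day 4, 9.12 and 9.64 on day 5 and 8.99 and 9.39 on day 6, a fall by 0.75 ± 0.12 on the log2 scale (adjusted p = 0.0072). The windows did not overlap, and replicate 1 was the lower on each day. The paired homeobox genes Prrx2 (-0.77 ± 0.18, adjusted p = 0.049) and Prrx1 (-0.47 ± 0.10, adjusted p = 0.033), which mark limb and body wall mesenchyme, fell together with Fn1 (-0.53), Vim (-0.30) and the forkhead gene Foxf2 (-0.29). Thy1, the fibroblast surface antigen used to follow early reprogramming, differed by -0.58 ± 0.14 and did not pass (adjusted p = 0.055), although its later values of 7.18 to 7.47 lay below its earlier ones of 7.66 to 8.19. Snai1, a repressor of E-cadherin, stood at 6.89 to 7.18 on the earlier arrays and at 6.67 to 7.05 on the later ones, a difference of -0.09 (adjusted p = 0.95); it had come down from 8.6 and 8.61 before infection.

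Of 36 growth factor signalling genes 3 passed as lower, against 0.978% of all genes, with a list median of -0.10. Axl, the Gas6 receptor tyrosine kinase, went from 8.99, 9.22, 8.79 and 8.81 to 8.27, 8.33, 8.09 and 7.99. The windows were well apart and the difference of -0.78 ± 0.081 (adjusted p = 0.00081) was called whichever array was left out. Met, the receptor of hepatocyte growth factor, differed by -0.72 ± 0.12 (adjusted p = 0.0094). Fgf7, a mesenchymal factor for epithelia, differed by -0.96 ± 0.20 (adjusted p = 0.034), with lower values in replicate 1 on every day. In the TGF-beta list 1 of 24 passed as lower, the activin antagonist Fst (-0.999 ± 0.20, adjusted p = 0.026), and in the list of AP-1 and somatic regulators 1 of 30, Tead1 (-0.48), the DNA-binding partner of YAP. With 0.978% of all genes called lower, a single call in lists of this size is not a result about the list. No gene of these lists passed as higher by limma, where 1, 0 and 2 had an unadjusted p under 0.05 upward.

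Other large falls lay outside the lists. Anxa10, a little-studied annexin, stood at 7.04 and 9.17 on day 3, 7.56 and 6.41 on day 4, 6.45 and 5.24 on day 5, and 5.97 and 5.0 on day 6. The highest value by far was replicate 2 of day 3, and the windows overlapped, since replicate 2 of day 4 lay just below replicate 1 of day 5. The difference was -1.88 ± 0.40 (adjusted p = 0.034). Before infection it had stood at 4.89 in both replicates, and on the GFP arrays of days 1 to 8 at 4.7 to 5.12, so that its rise by day 1 (7.2 and 8.01) was seen in the 4F arm and its level on day 8 (4.99 and 4.99) was again that of uninfected cells. On the single 3F arrays Anxa10 stood at 7.93 on day 3 and 5.9 on day 5, so a high level and a later lower one were seen without c-Myc too. Edn1 (endothelin 1, a vasoconstrictor peptide) differed by -1.27 ± 0.28, the secreted protease Prss23 by -1.26 ± 0.21, the immediate early phosphatase Dusp1 by -1.23 ± 0.29, the metalloproteinase inhibitor Timp3 by -1.21 ± 0.21 and the Golgi protein Gask1b by -1.20 ± 0.27. From day 3 to day 5 Edn1 changed by -1.52 in 4F and by -1.10 in GFP cells, and Dusp1 by -1.52 and -1.33. Neither GFP value passed (adjusted p = 0.19 and 0.13), nor did the difference between the arms (adjusted p = 0.81 and 0.93).

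The pluripotency network rose in few members. Of 45 measured genes 5 passed as higher, against the background of 0.537%, and none as lower (none had an unadjusted p under 0.05 downward). Values above 0 were seen for 38 of the 45, with a small median of 0.14 (0.11 in replicate 1 and 0.25 in replicate 2). The later arrays lay wholly above the earlier ones for 8 of the 45, against 437 of all 19938 genes. Pou5f1 stood at 6.05 and 6.38 on day 3, 6.75 and 6.24 on day 4, 7.28 and 7.84 on day 5 and 7.4 and 8.81 on day 6. The windows did not overlap. The mean step was largest between days 4 and 5 (1.07, against 0.28 before and 0.543 after). Replicate 1 had already risen from day 3 to day 4, and replicate 2 rose again from day 5 to day 6. The difference was 1.48 ± 0.27 (adjusted p = 0.016), a 2.79-fold higher signal, to which viral and endogenous transcripts cannot be assigned here. The GFP arrays stood at 5.22 to 5.49 on days 3 and 5.

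Nanog, a homeodomain factor that no virus delivered, stood at 5.94 and 5.73 on day 3, 6.16 and 6.04 on day 4, 6.22 and 6.6 on day 5 and 6.96 and 7.89 on day 6. Day 3 was within the range of uninfected and GFP cells (5.72 to 6.0), and most of the rise lay between day 5 and day 6. The difference was 0.95 ± 0.21 (adjusted p = 0.037). Gdf3, a TGF-beta family ligand of pluripotent cells, had begun earlier, with 7.03 and 7.29 on day 3, 7.6 and 8.18 on day 4, 7.7 and 8.34 on day 5, and 8.18 and 8.64 on day 6, against 5.28 to 5.39 on the GFP arrays of days 3 and 5. It rose within each replicate, but the windows overlapped. Its difference was 0.69 ± 0.13 (adjusted p = 0.018). Tfcp2l1, a transcription factor of the naive state, went from 6.37, 5.99, 6.52 and 6.3 to 6.67, 6.92, 6.97 and 7.15, a difference of 0.63 ± 0.13 (adjusted p = 0.023). Alpl, the tissue-nonspecific alkaline phosphatase stained in early colonies, went from 6.98, 6.89, 7.16 and 7.04 to 7.36, 7.79, 7.58 and 8.05, a difference of 0.68 ± 0.15 (adjusted p = 0.041). In both genes every later array was above every earlier one.

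**Figure D3:**
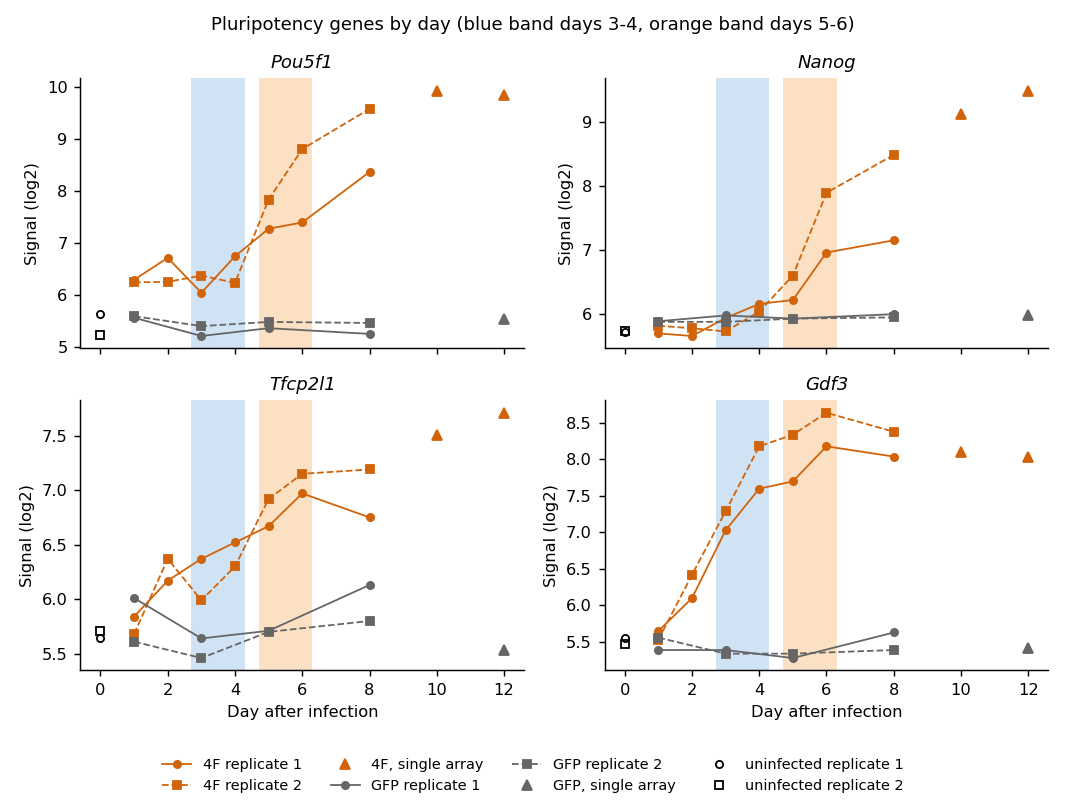
Log2 signal of Pou5f1, Nanog, Tfcp2l1 and Gdf3 by day after infection, with 4F cells in orange, GFP cells in grey, uninfected cells as open black symbols, circles for replicate 1, squares for replicate 2 and triangles for the single arrays of days 10 and 12; the blue band marks days 3-4 and the orange band days 5-6. Gdf3 stood at 7.03 and 7.29 on day 3, when Nanog was still at 5.94 and 5.73.

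Other members of the network had differences of like size that did not pass. Tdgf1, the Nodal co-receptor Cripto, stood at 5.3 to 5.41 on the earlier arrays and at 5.89, 6.37, 6.68 and 8.44 on the later ones, a difference of 1.46 ± 0.36 (adjusted p = 0.059). L1td1, an RNA-binding protein of stem cells, differed by 0.78 ± 0.19 (adjusted p = 0.055), and Dppa5a by 0.81 ± 0.23 (adjusted p = 0.1). Fbxo15, an early Oct4 and Sox2 target, differed by 0.49 ± 0.12 (adjusted p = 0.066), and Zfp42, which encodes Rex1, by 0.55 ± 0.24 (adjusted p = 0.39). For Tdgf1 the windows were apart and replicate 2 of day 6 stood far above the rest. Among the other delivered factors, Sox2 differed by 0.30 ± 0.19 (adjusted p = 0.65), Klf4 by -0.03 ± 0.18 (adjusted p = 0.99) and Myc by -0.65 ± 0.34 (adjusted p = 0.54). The 5 calls became 1 without the replicate block. Leaving out replicate 2 of day 5 or of day 6 gave 0, and leaving out replicate 2 of day 3 or either array of day 4 gave 1. Leaving out replicate 1 of day 5, day 3 or day 6 gave 3, 5 and 8.

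The octamer ATGCAAAT, the letters bound by Oct4, was searched on both strands and found in 297 of 15614 promoters (1.9%), in 3 of 84 of the genes that rose (3.57%) and in 3 of 164 of those that fell (1.83%). Among these 3 risers, Acsbg1, an acyl-CoA synthetase, and Pim2, a serine/threonine kinase, held it before the start. Their windows are shown as examples, with the octamer in capitals, and not every riser that held it is shown.

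Acsbg1, chr9:54661898-54661965, minus strand: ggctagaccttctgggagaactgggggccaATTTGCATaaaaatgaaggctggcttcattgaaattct

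Pim2, chrX:7878074-7878220, plus strand: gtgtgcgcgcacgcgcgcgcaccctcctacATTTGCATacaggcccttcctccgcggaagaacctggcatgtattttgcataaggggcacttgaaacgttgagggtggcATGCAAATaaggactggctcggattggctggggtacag

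Acsbg1 rose by 0.70 ± 0.16 (adjusted p = 0.042), from 7.91 to 8.29 on the earlier arrays to 8.47 to 8.97 on the later ones. Pim2 rose by 0.61 ± 0.12 (adjusted p = 0.022), from 7.55 to 8.1 up to 8.25 to 8.55. Neither gene's windows overlapped. Both genes were picked for the sequence after their values were seen.

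None of the 12 rises that were called without each of the 8 arrays belonged to the pluripotency list. Slc38a5, a plasma membrane transporter of glutamine and other neutral amino acids, stood at 6.07 and 6.06 on day 3, 6.79 and 7.2 on day 4, 7.49 and 7.84 on day 5 and 8.11 and 8.62 on day 6. It rose on every day in both replicates while the GFP arm stood at 5.33 to 5.79 on days 3 and 5. The difference was 1.48 ± 0.12 (adjusted p = 0.00013), and the change between days 3 and 5 differed from GFP by 1.73 (adjusted p = 0.032). Trh, the precursor of thyrotropin-releasing hormone, stood at 5.7 and 5.8 on day 3, 6.43 and 5.89 on day 4, 7.18 and 6.36 on day 5 and 8.1 and 7.62 on day 6. The difference was 1.36 ± 0.19 (adjusted p = 0.0037), and the windows overlapped at replicate 1 of day 4 and replicate 2 of day 5.

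Il7r, the receptor chain of interleukin 7, went from 4.88, 5.2, 5.37 and 5.58 to 6.34, 6.05, 6.74 and 6.33, a difference of 1.11 ± 0.18 (adjusted p = 0.0078). Its windows were apart, and its level on the single arrays of days 10 and 12 was back at 5.21 and 5.2. Mctp2, a membrane protein with C2 domains, had a like course, with 1.06 ± 0.14 (adjusted p = 0.0029) between the windows and 5.49 and 5.44 on days 10 and 12. Aim2, a sensor of cytosolic DNA, differed by 1.04 ± 0.17, Atp9a, a lipid flippase, by 0.95 ± 0.14, and Atp2a3, a calcium pump of the endoplasmic reticulum, by 0.89 ± 0.14, with no overlap between the windows in any of them. Morc1, a germline silencer of transposons, differed by 1.27 ± 0.25, Cd3g, a chain of the T cell receptor complex, by 1.24 ± 0.27, and Spock2, a testican proteoglycan, by 1.07 ± 0.20, and in these the windows overlapped.

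Of 23 glycolysis and lactate genes 2 passed as higher, against 0.537% of all genes, with a list median of 0.015. Slc16a3, the lactate exporter MCT4, stood at 7.42 and 6.73 on day 3, 7.29 and 6.85 on day 4, 7.13 and 7.13 on day 5 and 8.67 and 8.24 on day 6, so that its rise of 0.72 ± 0.15 (adjusted p = 0.033) lay mainly on day 6. It had stood at 8.76 and 9.08 before infection and at 9.35 and 8.86 on day 1, so its values on day 6 were still below those. On day 8 it stood at 10.5 and 10.3. Pfkl, a subunit of phosphofructokinase, moved on the same day, from 8.38 and 8.28 on day 5 to 8.9 and 8.71 on day 6, and differed by 0.37 ± 0.070 (adjusted p = 0.018) between the windows. Before infection Pfkl had stood at 8.73 and 8.89, near its level of day 6. Of 31 genes of the p53, CDK inhibitor and senescence list, 1 rose and 1 fell, against 0.537% and 0.978% of all genes, and they are neighbours in the Ink4b-Arf-Ink4a locus. Cdkn2a went from 7.47, 7.43, 7.5 and 8.02 to 7.83, 8.03, 8.19 and 8.41 (0.51 ± 0.086, adjusted p = 0.0094) and Cdkn2b from 7.85, 8.34, 7.75 and 8.07 to 7.44, 7.84, 7.16 and 7.31 (-0.56 ± 0.090, adjusted p = 0.0083). The windows of both overlapped, and each gene moved its own way in both replicates. From day 3 to day 5 the GFP arm changed by 0.35 for Cdkn2a and by 0.18 for Cdkn2b, and neither passed (adjusted p = 0.18 and 0.55). Limma's test of the difference between the arms passed for neither gene (adjusted p = 0.8 and 0.13), so none from the control arm was shown.

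**Figure D4:**
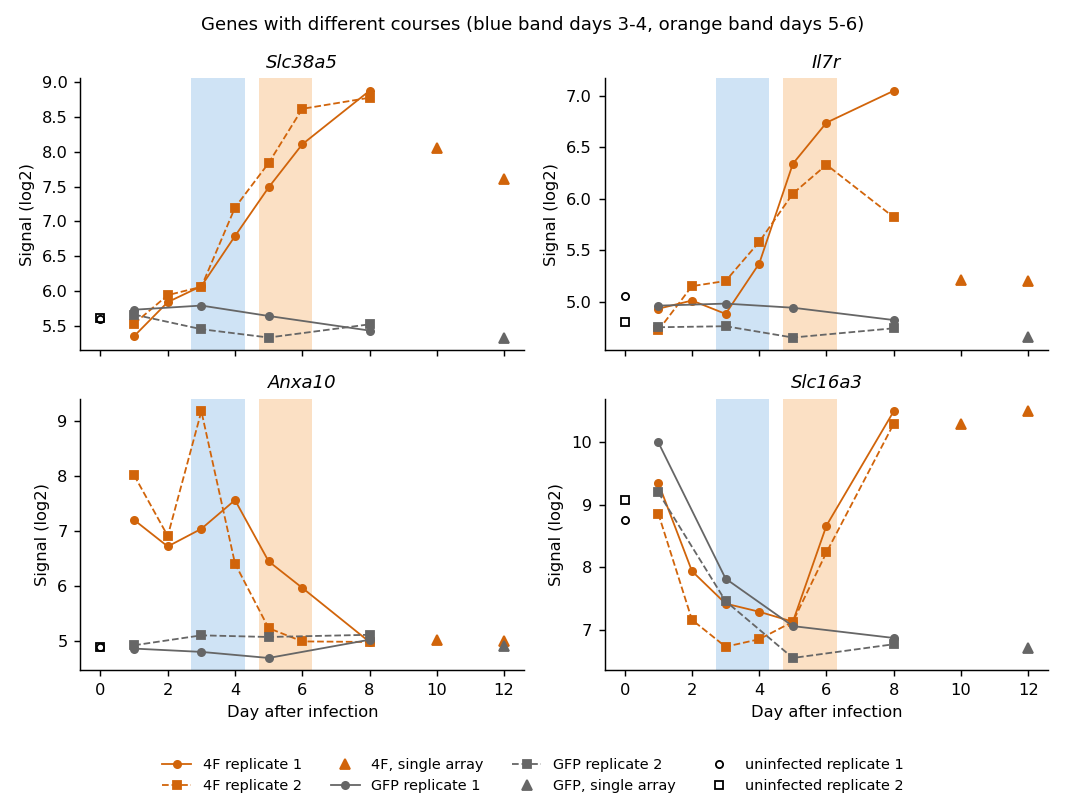
Log2 signal of Slc38a5, Il7r, Anxa10 and Slc16a3 by day after infection, with 4F cells in orange, GFP cells in grey, uninfected cells as open black symbols, circles for replicate 1, squares for replicate 2 and triangles for the single arrays of days 10 and 12; the blue band marks days 3-4 and the orange band days 5-6. Slc38a5 climbed on each day from 3 to 6, Il7r was back at 5.21 and 5.2 on days 10 and 12, Anxa10 came down to 5.97 and 5.0 by day 6, and Slc16a3 moved on day 6.

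Epithelial genes had not passed as a group. None of 47 junction and adhesion genes was called by limma, 8 had an unadjusted p under 0.05 upward and 3 downward, and the median was 0.08 (-0.015 in replicate 1 and 0.13 in replicate 2). Cdh1, which encodes E-cadherin, stood at 5.98 and 5.84 on day 3, 6.22 and 6.13 on day 4, 6.09 and 6.78 on day 5 and 6.28 and 7.35 on day 6. The rise was seen in replicate 2 (1.08) and hardly in replicate 1 (0.083), and the difference of 0.58 ± 0.24 did not pass (adjusted p = 0.36). Epcam, an adhesion molecule of epithelia and stem cells, ran 5.71 and 5.82, 5.94 and 6.43, 6.17 and 7.28, and 6.35 and 8.42 over the 4 days. It too rose further in replicate 2 (1.73 against 0.437), and its difference of 1.08 ± 0.45 did not pass (adjusted p = 0.36).

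The interferon response list divided the replicates more sharply. All 44 measured genes had a value above 0 and the median was 0.59, but none was called by limma (19 had an unadjusted p under 0.05), and the median was 0.086 in replicate 1 and 1.1 in replicate 2. The median signal of the 44 genes on days 3, 4, 5 and 6 was 5.87, 5.89, 6.04 and 6.08 in replicate 1 and 6.04, 6.44, 7.22 and 8.44 in replicate 2. Replicate 2 thus climbed on each day and replicate 1 stayed near its level of day 3. The GFP arm had a list median of 0.53 between days 3 and 5, with none called and 3 at an unadjusted p under 0.05.

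Proliferation genes gave no calls between the windows. The lists of DNA replication (47 genes), mitosis (49), nucleolar and MYC targets (53) and oxidative phosphorylation (41) had no called member by limma, with 3, 0, 2 and 6 genes at an unadjusted p under 0.05, all upward, and medians of 0.11, 0.01, 0.04 and 0.09. Over days 3 to 5 of the GFP arm the medians were -0.43, -0.42, -0.38 and -0.091, with 2, 0, 9 and 0 genes called lower, against 0.532% of all genes. The difference of the arms between days 3 and 5 had medians of 0.66, 0.53, 0.46 and 0.17, with no member called by limma and 33, 11, 29 and 5 at an unadjusted p under 0.05. Of 36 cytosolic ribosomal protein genes 1 passed as higher (0.537% of all genes did), Rps19 (0.47, adjusted p = 0.017).

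Over the same 2 days the GFP arm alone had 229 calls, of which 123 were higher (0.617%) and 106 lower (0.532%). Leaving out 1 of its 4 arrays left 10 to 96, and the fit without the replicate block left 36. The change from day 3 to day 5 differed between 4F and GFP for 49 genes, 19 more positive in 4F (0.0953%) and 30 more negative (0.15%). None of the 49 was called without the replicate block, and 0 to 13 were called when 1 array was left out. Among the 195 genes that fell between the windows, 12 had a called difference from GFP and 8 were also called lower in GFP. Among the 107 that rose, these counts were 4 and 3 (called higher in GFP). The median GFP change of the 195 was -0.087 and that of the 107 was 0.0023.

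Single days gave no calls. Limma called no gene between days 3 and 4, days 4 and 5, or days 5 and 6, with 904, 403 and 425 genes at an unadjusted p under 0.05. The fit with 1 mean per 2-day window on the 8 arrays alone also called none, with 3171 at an unadjusted p under 0.05 and a smallest adjusted p of 0.066, while 8 arrays with 1 mean per day called 452, among them 75 of the 107 and 132 of the 195.

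Markers of other cell types gave few calls. Of the 37 lists, 18 had a called member and 19 had none. Those without one, other than interferon, had medians from -0.18 (BMP ligands and targets) to 0.11, and with interferon they held 75 genes at an unadjusted p under 0.05. In the cell type lists the rises called were Lgals7 (keratinocyte, 0.86 ± 0.13), Tfap2c (trophectoderm and primitive endoderm, 0.51 ± 0.12), Mapt (neural, 0.55 ± 0.076) and Alpl again among bone markers. The falls called were the muscle actin Acta1 (-0.79) and 4 of 17 fibroblast markers (0.978% of all genes were called lower and 0.537% higher). These 4, Vim, Prrx1, Cdh11 and Fn1, were already counted among the mesenchymal genes. Germ cell, mesendoderm, macrophage, endothelial and adipocyte markers had no call, with 2, 1, 1, 0 and 1 genes at an unadjusted p under 0.05. Summed over the 25 macrophage markers the signal was 10.1 to 10.2 on the earlier and 10.1 to 10.3 on the later arrays, and for the 27 keratinocyte markers 10.4 to 10.6 and 10.5 to 10.7. The sum of the 27 neural markers was 12.3 to 12.4 on the earlier arrays and 12.1 to 12.3 on the later ones, so it did not rise with Mapt. Of the 27, 13 had values below 0, and none of these passed, the lowest being Tubb3 (-0.45, adjusted p = 0.63). The fibroblast markers did not all fall. Lum (0.72), Pdgfra (0.34), Dcn (0.28) and Twist1 (0.035) had values above 0, and none of these passed. The sum of the 17 fibroblast markers went from 14.7 to 14.8 on the earlier arrays down to 14.4 to 14.6. Its part in the fall of the matrix and contractile genes was not tested. In the amino acid and stress lists 1 of 34 and 1 of 24 passed as lower, with 0.978% of all genes called lower: Nupr1 (-0.70), a stress-induced chromatin protein, and Dnajc3 (-0.39), an endoplasmic reticulum co-chaperone. Single calls of this kind describe the gene and not its list.

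**Figure D5:**
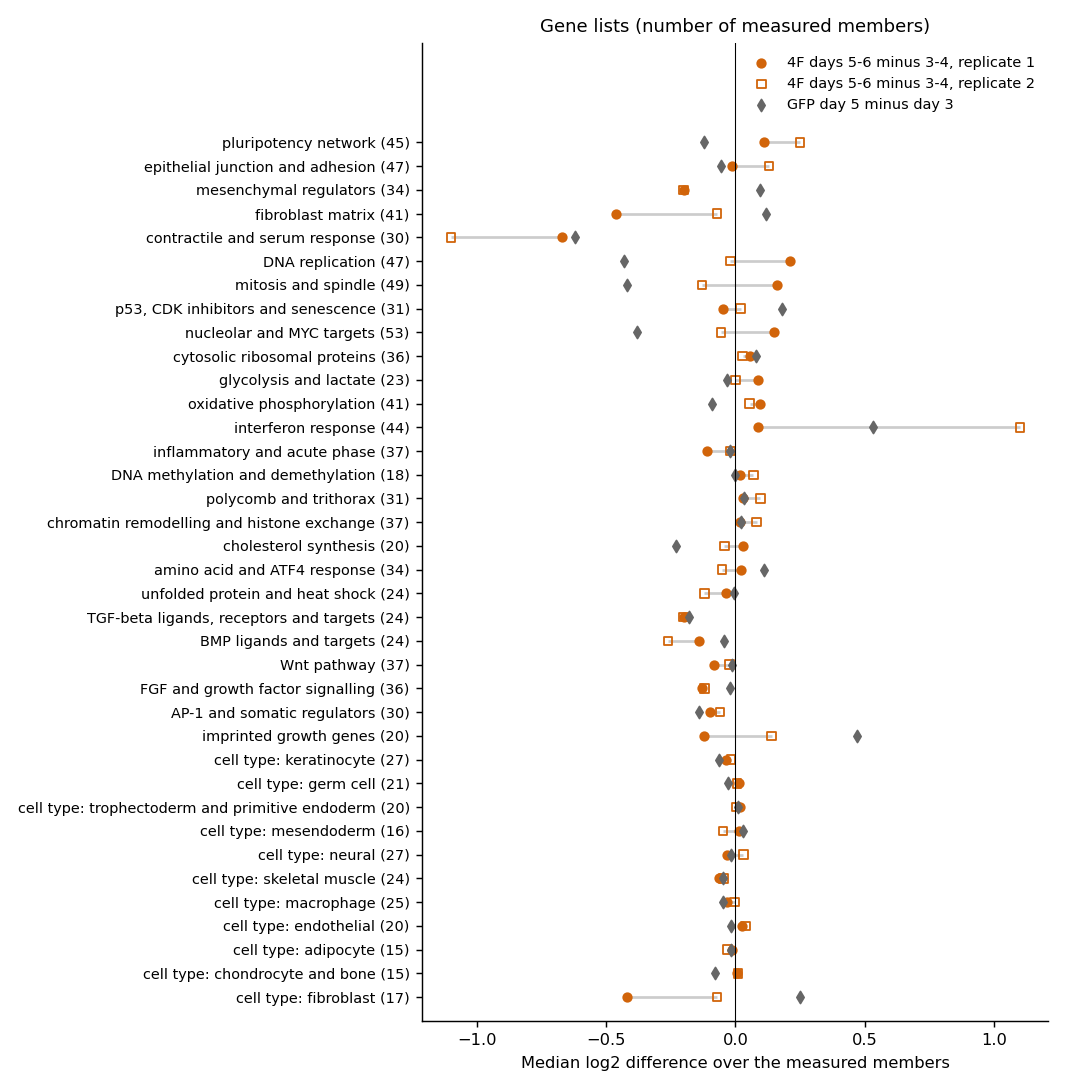
Median log2 difference over the measured members of each of the 37 lists (number of members in brackets), for 4F days 5-6 minus days 3-4 in replicate 1 (filled circle) and replicate 2 (open square), joined by a line, and for GFP day 5 minus day 3 (diamond). The contractile list lies lowest at -0.67 and -1.1, and the interferon list has the widest gap between replicates, at 0.086 and 1.1.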

How the data were processed

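The table the authors deposited holds log2 signals of Affymetrix whole-transcript arrays, 28853 rows by 31 arrays, with values from 4.27 to 14.3. The software, normalization and genome build are not given in the sources used here; array medians lay between 6.04 and 6.17. Rows with 1 gene symbol (21789; 1621 have several and 5443 none) gave 19938 genes; for 999 genes with more than 1 row, the row with the highest mean was used. Rows that read close paralogs may share signal.

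Limma 3.58.1 in R 4.3.3 was fitted to the 24 numbered arrays (12 group means plus the replicate number as a block; 11 residual degrees of freedom, 3.18 prior), with Benjamini-Hochberg adjustment over all 19938 genes. The block follows the labels, which give the RNA amount by replicate number; replicate differences of the 4 day groups correlated at r = 0.358 to 0.686 in 6 of 6 pairs. On simulated data for this comparison with 19938 genes, 94% of 100 genes changed by 1 and 100% of 100 changed by 2 (log2) were recovered, with 20 false calls. The simulated noise was independent between arrays, and each gene had the same replicate shift in all groups, as the fit assumes. Changes smaller than 1 were not simulated. The simulation therefore cannot show how the fit does on smaller changes or where replicates differ from group to group.

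Named genes were the delivered factors, 8 stage markers, the 12 largest rises and falls, the 3 largest called in each list and direction, and the 5 largest differences from GFP each way; list members without a call are given as values. Members and lists were chosen with earlier results of these data known. Alternatives changed the block, the arrays fitted, the normalization, the filter, the row rule and the variance trend, and left out each array. Arrays limit precision by their number.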

Additional observations from a re-analysis of the deposited data

Results flagged for a closer look

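The change from day 3 to day 5 differed between 4F and GFP, by limma's test of the difference itself, for 19 genes that were more positive in 4F and 30 that were more negative. The largest negative differences were those of Pla2g7, which encodes a lipoprotein-associated phospholipase (-2.01), the p53 and FOXO target Sesn3 (-1.78), the glutathione transferase gene Gsta4 (-1.69), the stress protein gene Nupr1 (-1.38) and the membrane repair gene Myof (-1.34). Of these, Pla2g7 (-1.07), Nupr1 (-0.70) and Myof (-0.95) also fell between the windows of the 4F arm. Sesn3 and Gsta4 differed by -0.05 and -0.38 there and did not pass (adjusted p = 0.98 and 0.25), while both were called higher in GFP from day 3 to day 5 (1.38 and 1.20).

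The largest positive differences were those of Slc38a5 (1.73), Rangrf (1.24), the deubiquitinase gene Usp1 (1.15), the histone gene H4c6 (1.11) and the antisense gene Kcnd3os (1.06). Usp1 stood at 7.74 and 7.43 on GFP day 3 and at 6.64 and 6.79 on GFP day 5, against 8.58 and 8.48, then 8.89 and 8.73, in 4F cells. H4c6 went from 9.18 and 8.72 to 8.42 and 7.75 in GFP cells and from 9.77 and 9.64 to 10.0 and 9.83 in 4F cells. Histone H4 genes are nearly identical to each other, so the value of H4c6 may hold signal of its copies. Each of these 10 had an adjusted p between 0.032 and 0.049.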

How the results depend on the processing

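The 107 rises and 195 falls between the windows became 22 and 30 with no replicate block, 0 and 0 with 1 mean per window on 8 arrays, and 143 and 309 with 1 mean per day on 8 arrays. Leaving out 1 array gave 22 to 107 rises and 34 to 224 falls. For GFP day 5 minus day 3, 123 higher and 106 lower became 20 and 16 with no replicate block, 80 and 66 after median centring, 72 and 59 with a variance trend, and 2 to 54 and 8 to 55 without 1 array. The 19 and 30 differences between arms became 0 and 0 with no replicate block, 7 and 4 after quantile normalization, 2 and 1 after median centring, 3 and 1 with the mean of rows per gene, 2 and 3 with a variance trend, and 0 to 10 and 0 to 11 without 1 array. For the single-day steps, leaving out an array gave 0 to 1 lower between days 3 and 4 and 0 to 1 higher between days 5 and 6. The cause of these shifts was not tested. The pairing check over all 12 groups gave r of 0.0808 to 0.686 in 66 pairs, 65 of them above 0.1.

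Of the 65 named genes, 50 were called between the windows, and none turned direction under a call. Of the 50, the number that lost their call was 34 with no replicate block, all 50 with 1 mean per window, 9 with 1 mean per day, 4 after quantile normalization, 1 after median centring, 1 with the mean of rows, 0 with a variance trend and 7 to 38 without 1 array.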

Other observations

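Some members of cell surface gene families fell beside the contractile genes. The families were picked by symbol after the values were seen, so their counts describe them and test nothing, and each is to be read against the 0.978% of all genes called lower. All 12 measured annexins, calcium-dependent membrane-binding proteins, had values below 0, and 4 passed limma: Anxa10, Anxa3 (-1.31), Anxa1 (-0.74) and Anxa2 (-0.39). All 7 caveolins and cavins, the coat proteins of caveolae, were below 0, and Cavin2 (-0.69), Cav1 (-0.65) and Cav2 (-0.49) passed. The GFP arm had a median of -0.39 for these 7 between days 3 and 5, and the 4F windows one of -0.22. Of 26 integrin subunits 3 passed as lower, the fibronectin and vitronectin receptor chains Itga5 (-0.61), Itgav (-0.48) and Itgb1 (-0.47), with 18 of 26 below 0 and a family median of -0.058. Of 10 laminin chains Lamb1 (-0.63) and Lama2 (-0.55) passed, with a median of -0.075, and of 13 S100a genes S100a6 (-0.59) and S100a11 (-0.33), with a median of -0.051. The 16 connexins, the channel proteins of gap junctions, had no call and a median of 0.007.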
